A study of Bos grunniens with 18 samples.

Results

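The m6A landscape of the pregnant yak ovary was described from 282 m6A peaks, of 309 peaks analysed over 3 reproductive stages. Of each stage's list only an opening stretch was analysed, and its reach differed, so these counts do not compare the stages. The 282 peaks are the complete entries in the stretch analysed of the single pregnancy (YO-P) list. In that list, immunoprecipitated RNA was set against input RNA. The peaks were assigned to 176 genes. Yak (Bos grunniens) ovaries were taken from slaughtered animals aged 6 years in anestrus (YO-A, April), estrus, also called the follicular phase (YO-F, August), and pregnancy (YO-P, December), with no other treatment. Each stage had 3 input and 3 immunoprecipitated libraries, 18 in all, from poly(A) RNA that was fragmented before pulldown with an m6A antibody. Since each stage was collected in 1 month, stage and season cannot be told apart. Part of each ovarian sample was fixed and the rest was frozen, with no separation of cell types described. Fewer cells of a type and less RNA per cell therefore cannot be told apart either.

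N6-methyladenosine (m6A) is the most common internal mark of messenger RNA. A methyltransferase complex built around METTL3 and METTL14 places it, FTO and ALKBH5 can remove it, and YTH-domain proteins read it and alter splicing, translation and decay of the transcript. In mammals the mark is typically dense around stop codons, in 3′ untranslated regions (UTRs) and in long exons. In the ovary m6A writers and readers are known for their part in oocyte maturation.

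Each peak had a fold enrichment, the ratio of immunoprecipitated over input signal, and a log10 of its false discovery rate (FDR), where a more negative value is a firmer call. Both came from the pooled pregnancy libraries, so no peak had a replicate error and peaks were described without a test. The peaks analysed here lay on chromosome 1, 238 on the plus strand from 956005 to 172200451 and 44 on the minus strand up to 46144327, with the strand read from the order of the list. Coordinates are those of the authors' yak annotation. Expression was read as FPKM (fragments scaled to transcript length and library size) in the 3 pregnancy input libraries YO-P1, YO-P2 and YO-P3. Neither kind of file held counts, so the sequencing depth behind single values is unknown. The labelled tissue could barely be checked. Of 104 marker genes of 11 ovarian and accessory cell types, 4 were in the expression table analysed here. A peak was listed for 2 others, FOXL2 of granulosa cells and TIGIT of T and NK cells. None of the 12 luteal markers was in the table or had a peak in these stretches.

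Most pregnancy peaks lay in exons outside the annotated UTRs. Of the 282 peaks, 196 were annotated to such an exon (69.5%, 95% exact binomial interval 63.8 to 74.8), 58 to a 3′ UTR (20.6%, 16.0 to 25.8) and 28 to a 5′ UTR (9.93%, 6.70 to 14). These intervals cover counting error only. A transcript without annotated UTRs can only give exonic peaks, and how many transcripts lack them was not examined. The exonic peaks were split by exon number. An internal exon held 109 of them, the last of several exons 49, the first of several 17, and a single-exon transcript 21. Peaks in a 3′ UTR or a last exon together made up 107 peaks (37.9%). On the strand of their assigned gene lay 268 peaks. Of these, 123 (45.9%) ended within 1000 bases of the end of the transcript that the list pairs with them, 55 (20.5%) started within 1000 bases of its start, 16 did both, and 106 (39.6%) did neither.

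Fold enrichment ran from 1.21 to 30.2, with a median of 4.43 and quartiles of 2.90 and 7.15. By region the medians were 4.32 in 3′ UTRs, 4.50 in 5′ UTRs and 4.48 in other exons. A log10 FDR of -2 or below, called firm here, was reached by 51 of 58 peaks in 3′ UTRs (87.9%), 149 of 196 in other exons (76.0%) and 18 of 28 in 5′ UTRs (64.3%). Within exonic peaks the first exons had a median fold enrichment of 6.48 and 10 of 17 firm peaks, against 4.14 and 38 of 49 in last exons. Over all regions, 64 peaks (22.7%) were above this limit and are called weak, and 44 of them had a log10 FDR above -1.3.

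**Figure D1:**
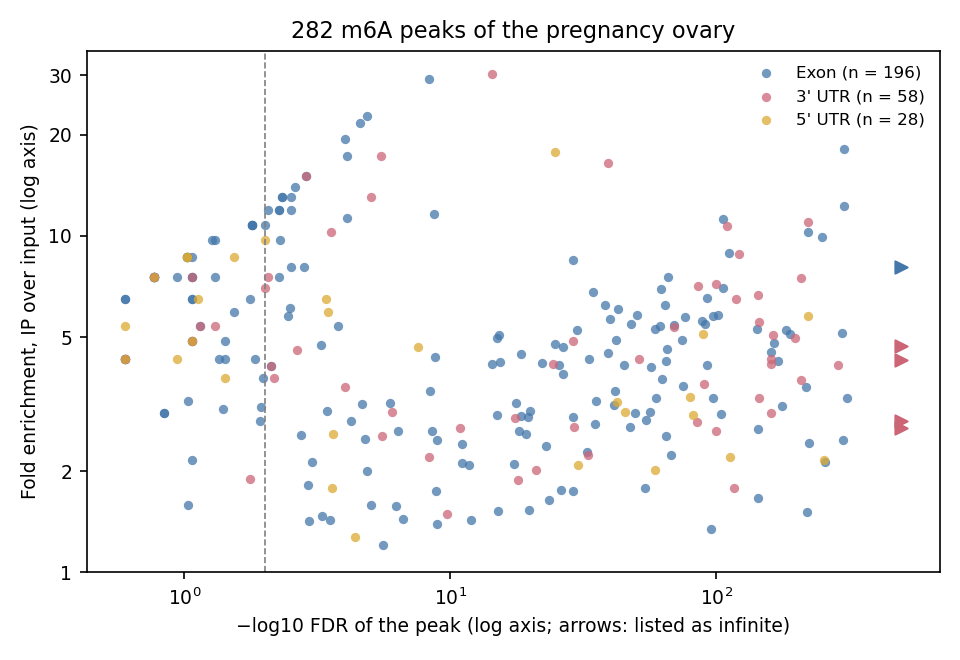
Fold enrichment (log axis) of the 282 pregnancy peaks against −log10 FDR (log axis), coloured by annotated region, with the dashed line at a log10 FDR of -2 and arrows for the 5 peaks listed as infinite. The 4 peaks of over 20-fold enrichment lie at log10 FDR values of -4.57 to -14.3, and the peaks with an infinite value lie between 2.69 and 8.06.

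The largest fold enrichments were not the firmest calls. Across the 277 peaks with a finite FDR, fold enrichment and −log10 FDR had a Spearman correlation of -0.21, and across the 213 of these at a log10 FDR of -2 or below it was -0.03. Both measures came from the same reads, so these are descriptions only. Of the 34 peaks with at least 10-fold enrichment, 30 were firm, but 21 had a log10 FDR above -5. The weak peaks had a higher median fold enrichment (6.48) than the firm ones (4.15). Peaks were 238 spliced bases long at the median and 102 of them (36.2%) spanned 2 or more exon blocks. Longer peaks had somewhat higher fold enrichment (Spearman 0.33 over 282 peaks).

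The largest fold enrichment was listed for the 3′ UTR of SHOX2, a homeobox transcription factor, at 119125539 to 119125867 on the plus strand. It was 30.2, with a log10 FDR of -14.3. The next, 29.2, was in the first of 7 exons of ENSBGRG00000002215 at 46144238 to 46144327 on the minus strand, with a log10 FDR of -8.33. A single-exon gene without a symbol, ENSBGRG00000000644, followed with 22.7 at 158650218 to 158650517, and DOP1B, a membrane trafficking protein, with 21.6 in a 3-block peak starting in exon 18 of 38. Their log10 FDR values were -4.86 and -4.57. No other peak was enriched 20-fold. This order ranks listed ratios, and whether it follows the amount of m6A was not tested. All fold enrichments above 20 fell, within rounding, on a common step. So did many of less firm peaks, as described under the other observations.

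Below them, the 6 next peaks differed widely in FDR. The palmitoyltransferase gene ZDHHC23 had a fold enrichment of 19.4 and CRYBG3, a crystallin-domain protein gene, had 17.3 in exon 3 of 23, at log10 FDR values of -4 and -4.10. SIDT1, a transmembrane protein gene, had 17.3 in its 3′ UTR at -5.47. The other three had lower FDR values. The peak in exon 4 of 8 of SON, an RNA-binding splicing cofactor of nuclear speckles, had a fold enrichment of 18.1 with a log10 FDR of -302 over 181 bases (37206991 to 37207171). VGLL3, a cofactor of TEAD transcription factors, had 17.8 at -24.8 in a 5′ UTR peak of 4 blocks and 1072 spliced bases. C3orf38 had 16.5 at -39.2 in its 3′ UTR. Of these 10 peaks, only the SON peak combined high enrichment with a log10 FDR below -100.

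The firmest calls were of moderate enrichment. Their log10 FDR was listed as minus infinity for 5 peaks. ADAMTS1, a secreted protease that remodels the matrix of the ovulating follicle, carried one in its 3′ UTR (28754681 to 28755281, minus strand) with a fold enrichment of 4.71. APOD, a lipid-carrying lipocalin, had 2.69 in its 3′ UTR. The Golgi membrane protein gene GOLIM4 had 4.29 in a 3′ UTR peak of 8 blocks. DYRK1A, a dual-specificity protein kinase, had 8.06 in its last exon, the 10th. The fifth was assigned to a U6 small nuclear RNA gene of the other strand, with 2.81 over 5 blocks. Thus 4 of these 5 were annotated to a 3′ UTR.

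Peaks were gathered in part of the genes. Of the 176 genes, 111 had 1 peak, 41 had 2 and 24 had 3 or more. The 65 genes with several peaks (36.9%, 95% exact binomial interval 29.8 to 44.5) held 171 peaks, or 60.6% of the list. Within such a gene the highest fold enrichment was 2.02 times the lowest at the median, and 9.20 times at most. Of the 65 genes, 39 had all their peaks in 1 class of region. Both a 5′ and a 3′ UTR peak were found in 7 genes.

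IGSF10, a large secreted immunoglobulin-domain protein, had the most peaks, 8 between 127005042 and 127017625. Exon 6 of 8 carried 5 of them, with fold enrichments from 2.64 to 9.72. The highest of these was the only peak of the gene with a log10 FDR above -2 (-1.27). CRYBG3 had 6 peaks, 3 of them in exon 5 of 23 with 3.19 to 9.72, and 1 of the 6 lay on the other strand. SON had 5 peaks, of which 4 lay within exon 4 between 37205972 and 37207980, at 9.93, 12.3, 18.1 and 2.66 in the order of transcription. All 5 peaks were firm, and the highest and the lowest fold enrichment of the gene lay in the same exon.

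NRIP1, the nuclear receptor corepressor RIP140, which mice need for ovulation, had 5 peaks in its only exon. From the start of the transcript they had fold enrichments of 11.9, 6.07, 4.92, 7.56 and 5.72. The first was the weakest call, with a log10 FDR of -2.26, and the others lay between -42.0 and -76.4. DOP1B completed the 5 genes, with 4 peaks at 5.40, 21.6, 7.56 and 13.0, of which those at 5.40 and 7.56 were not firm. Also with 4 peaks were AMOTL2, an angiomotin of the Hippo pathway, with 1.76 to 6.12, PLCL2, a phospholipase C-like protein, with 3.29 to 5.57, MED12L, and ENSBGRG00000000067, whose 4 peaks at 4.10 to 5.40 all lay in the 3′ UTR. Over the list, 20 exons held 2 or more peaks (54 peaks) and 8 held 3 or more. Long exons and single-exon genes were among them, as in NRIP1, IGSF10 and SON.

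**Figure D2:**
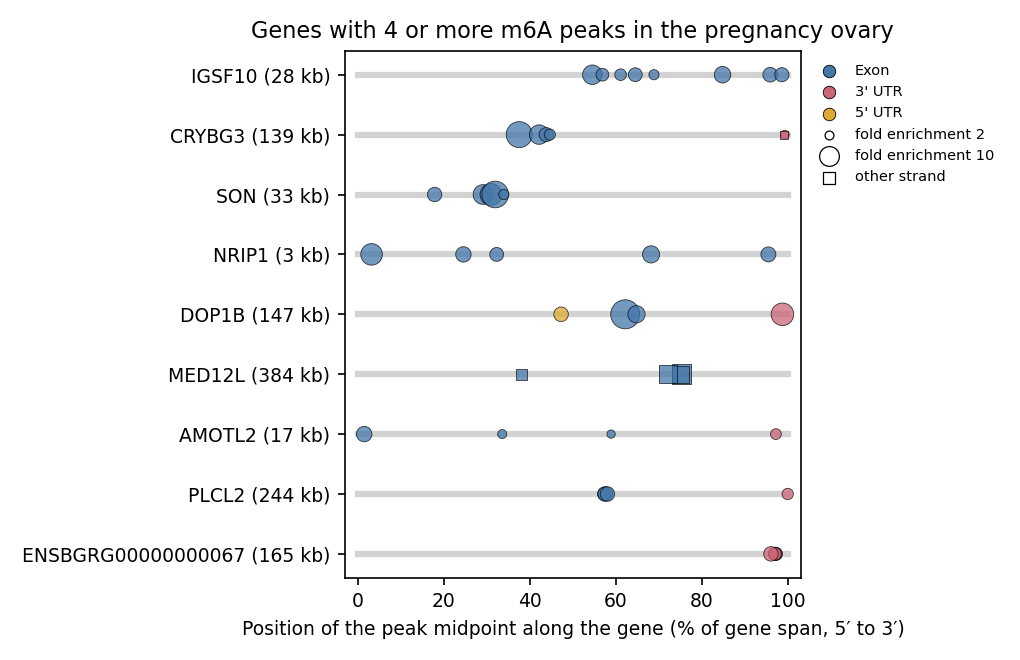
Midpoints of the peaks along the 9 genes with 4 or more peaks, as percent of the annotated span from 5′ to 3′ (span in kb beside the name), with circle area in proportion to fold enrichment and squares for peaks on the other strand than the gene. Exon 4 of SON holds 4 of its 5 peaks and exon 3 of PLCL2 holds 3 of its 4, while those of NRIP1 are spread along its single exon and those of ENSBGRG00000000067 lie at its 3′ end.

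Not every peak lay on the strand of its assigned gene. In 14 peaks of 10 genes the peak ran on the other strand, and 12 exonic peaks named an exon of another gene. All 4 peaks of MED12L, a Mediator subunit, were of this kind, since their exons belonged to the purinergic receptor genes P2RY12 and P2RY13 and to a gene without a symbol. A peak assigned to the lipase LIPI was in exon 1 of RBM11, a splicing regulator, with a fold enrichment of 4.86. Another, assigned to CGGBP1, was in exon 8 of 9 of the zinc finger gene ZNF654 with 5.47. With genes taken from the annotated exon, a choice made after seeing the data, 39.9% of 173 genes had several peaks.

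The peak genes were grouped by 6 function lists of 210 genes in all, 40 of which had a peak. The lists were not limited to the stretches analysed here, so a count over a list is no share of methylated genes. They were chosen with earlier results of these data known, so values of a list beside all peaks are descriptions only. Peaks of a list often share a gene and are not replicates. Among the list genes with an FPKM value on the covered stretches, beside 42 of 114 covered genes (36.8%), a peak was listed for 5 of 6 transcription factors and coregulators, 4 of 13 receptors and adhesion molecules and 3 of 4 interferon genes. It was listed for 2 of 3 matrix genes, 1 of 2 RNA-binding genes and 2 of 2 ubiquitin genes. The other RNA-binding gene, RBM11, holds in exon 1 the peak that was assigned to LIPI. These shares were not adjusted for expression. With covered genes under 0.1 FPKM set aside, 41 of the remaining 79 (51.9%) had a peak. Without a peak, OLIG1 of the factors and CLDN8 and CLDN17 of the receptors were at FPKM 0 in pregnancy, and CADM2 averaged 0.098. The receptors CD96, CHODL, CXADR, JAM2, NCAM2 and ROBO1 lay above 0.1 and had no peak either. Among 49 transcription factors and coregulators, 12 had 27 peaks with a median fold enrichment of 5.76, beside 4.43 over all 282 peaks, and 26 of the 27 were firm, beside 218 of all 282. They included SHOX2 (3 peaks, 6.48 to 30.2), VGLL3 (2 peaks, 4.15 and 17.8), NRIP1 and SON (5 each). SON, named above as a splicing cofactor, was counted in this list and among its 6 covered genes. It held 5 of the 27 peaks, all firm. MECOM, a zinc finger factor, had 3 peaks of 4.96 to 11.6. The BTB-domain repressors BACH1 and BCL6 reached 8.47 and 5.76. ETS2, an ETS-family factor, reached 7.08. FOXL2, which maintains granulosa cell identity, had 1 peak in its only exon (141846048 to 141846346) with a fold enrichment of 4.53 and a log10 FDR of -160. TBL1XR1, a corepressor subunit, had the lowest value of the list, 2.21.

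Interferon receptors and response genes had a lower median enrichment than the whole list. Of 18 listed genes, 4 had 6 peaks with a median of 2.77. IFNAR1, a chain of the receptor for type I interferons, which include the ruminant pregnancy signal interferon tau, had 4.14 in its last exon. IFNGR2, a chain of the interferon gamma receptor, had 2.96 in its last exon. MX1, an interferon-induced antiviral GTPase, had 3 peaks near its 3′ end, at 2.57, 2.24 and 7.56, the last one not firm. USP25, a deubiquitinase, had 2.24. IL10RB, a receptor chain for interleukin 10 and type III interferons, had no peak at an FPKM of 8.97, 6.69 and 6.83.

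In the list of extracellular matrix genes and proteases, 7 of 30 genes had 11 peaks with a median of 3.00, and 10 of the 11 were firm, beside a median of 4.43 and 218 firm peaks of 282 in the whole list. The type VI collagen chains COL6A1 and COL6A2 had 1.51 and 1.66 to 2.13, yet log10 FDR values down to -220 and -257. ADAMTS1 had a second peak in its 5′ UTR with 2.93, and ADAMTS5, a related aggrecanase, had 1.82 and 3.00. COL8A1 had 3.23 and 3.76. The list also held 2 peak genes that are not matrix components. TNFSF10, the death ligand TRAIL, had the highest value of the list, 8.92. CPN2, a subunit of the plasma enzyme carboxypeptidase N, had the one weak peak, at 4.32.

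Of 47 surface receptors and adhesion molecules, 6 had 7 peaks with a median of 7.56, beside 4.43 over all peaks, and 3 of the 7 were firm, beside 218 of 282. The firm ones were ROBO2, a receptor for Slit proteins, with 2.63, NECTIN3, a cell adhesion molecule, with 4.09, and HTR1F, a serotonin receptor, with 11.9. Those of the ephrin receptors EPHA3 and EPHA6 (7.56 each) and of TIGIT (4.32 and 8.64) were not. ROBO1, the paralog of ROBO2, had no peak at an FPKM of 16.3, 9.80 and 13.9. RNA-binding and processing genes with an assigned peak were 3 of 37, namely the lariat-debranching enzyme DBR1 (9.72 and 11.2), the splicing-related cyclin CCNL1 (4.14 and 8.64) and SCAF4 (4.26). In the ubiquitin system 9 of 30 genes had 12 peaks with a median of 5.06. The ligase genes SIAH2 (10.3) and FBXO40 (up to 14) led them, and the deubiquitinase USP16 had 5.25 at a log10 FDR of -182. The 9 genes include SENP5 (5.94) and TBCCD1 (2.71), which are not ubiquitin enzymes, and USP25, also counted in the interferon list.

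Genes with and without a peak were then set beside their expression in pregnancy. The expression table analysed here held 173 genes. Of these, 114 lay on the stretches of chromosome 1 that the peak list covers, and 42 of them (36.8%) had a peak. The other 134 peak genes were outside the part of the table analysed here. In YO-P1, YO-P2 and YO-P3 the median FPKM of the 42 genes with a peak was 6.02, 6.68 and 6.32 (mean 6.34 ± 0.33, SD, n = 3 libraries). The 72 genes without a peak had medians of 0.217, 0.235 and 0.369 (0.273 ± 0.083). The difference of 4.13 ± 0.31 on the log2(FPKM + 0.1) scale was larger than the spread between libraries.

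That difference rested on genes of very low FPKM. Of the genes without a peak, 34 (47.2%) had a mean FPKM under 0.1, against 1 of the genes with a peak. Among the 79 covered genes of at least 0.1 the order turned: the 41 genes with a peak had medians of 6.23, 7.32 and 6.93 and the 38 without had 9.39, 7.97 and 8.09, a log2 difference of -0.31 ± 0.24. Genes with a peak were also longer, spanning 57780 bases at the median against 7995, and 37 of 42 had a symbol against 38 of 72.

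**Figure D3:**
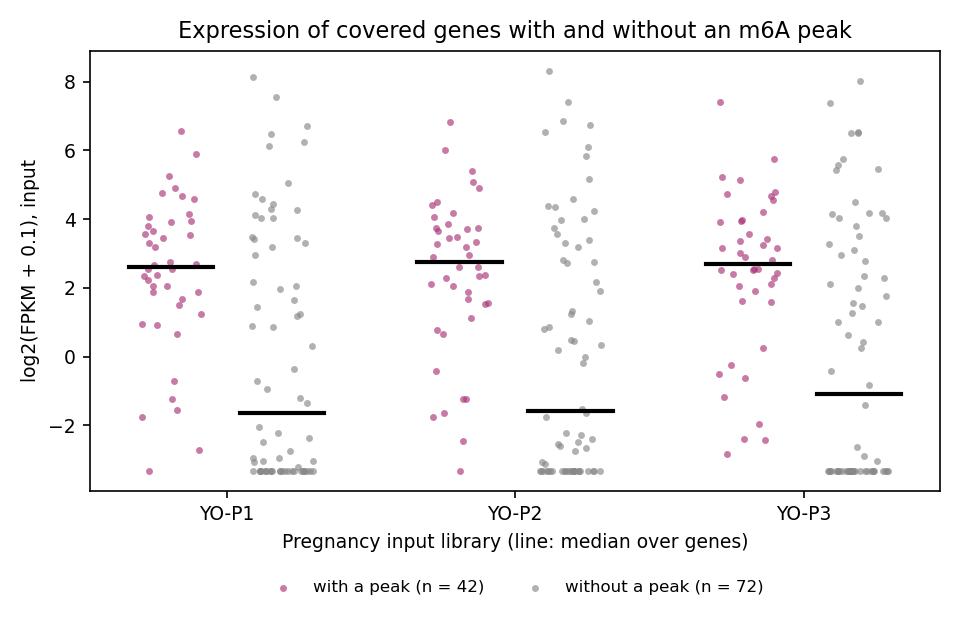
log2(FPKM + 0.1) of the covered genes with (n = 42) and without (n = 72) a peak in each pregnancy input library, with 1 point per gene and a line at the median. The medians with a peak are 6.02 to 6.68 FPKM and those without are 0.217 to 0.369. The highest point in each library is APP, which has no assigned peak.

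The share of genes with a peak did not climb steadily with expression. It was 1 of 35 (2.86%, 95% exact binomial interval 0.072 to 14.9) under an FPKM of 0.1 and 6 of 11 between 0.1 and 1. Between 1 and 5 it was 9 of 21 (42.9%), between 5 and 20 it was 19 of 30 (63.3%, 43.9 to 80.1), and between 20 and 60 it was 6 of 10. At 60 or more it was 1 of 7 (14.3%, 0.361 to 57.9). From 0.1 upward the intervals of neighbouring classes overlapped. Firm peaks were found in 1 of the 11 genes between 0.1 and 1 and in 19 of the 30 between 5 and 20. None of the 15 covered genes at FPKM 0 in all 3 libraries had a peak.

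**Figure D4:**
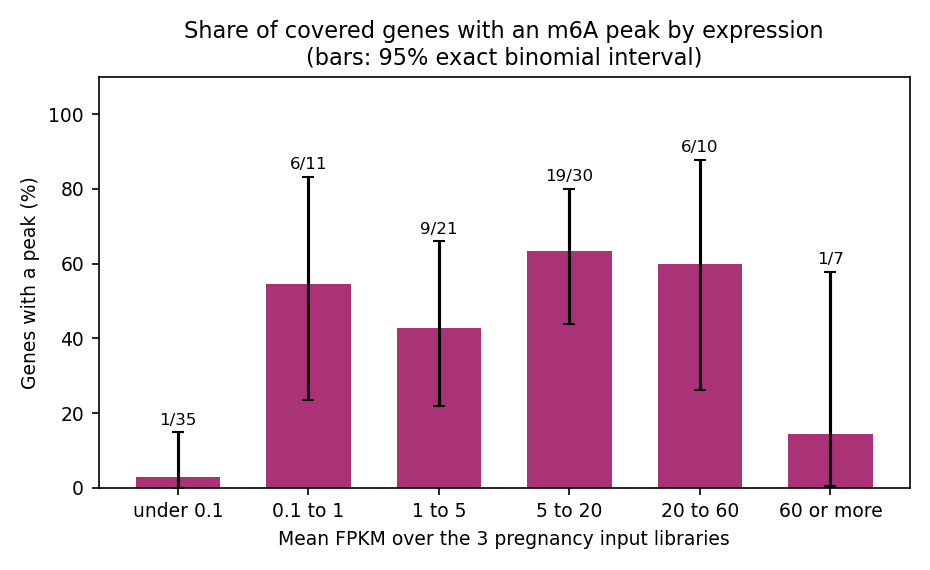
Percent of covered genes with a peak by mean pregnancy FPKM, with the counts above each bar and 95% exact binomial intervals as error bars. The share is 2.86% under 0.1, between 42.9% and 63.3% from 0.1 to 60, and 14.3% at 60 or more.

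The largest fold enrichment of the 5 most expressed genes with a peak ran from 1.52 to 18.1. ADAMTS1 had an FPKM of 94.9, 114 and 169 in the 3 libraries, with a fold enrichment of up to 4.71. MRPS6, a mitochondrial ribosomal protein, had 59.7, 64.7 and 53.3 and a single peak of 1.52 in its last exon. SON had 38, 33.7 and 37.4 and up to 18.1. ENSBGRG00000000124 had 30.2, 41.9 and 35.4 and up to 1.75, and PAXBP1, a nuclear protein, had 26.7, 29.9 and 27.4 and up to 2.97. ADAMTS1 had the widest spread of these 5, with its highest value in YO-P3.

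At the other end, the 5 least expressed genes with a peak were ENSBGRG00000000034, LIPI, HTR1F, EPHA3 and MIS18A. ENSBGRG00000000034 had an FPKM of 0.052, 0.080 and 0.041 and a peak of 7.56. LIPI was at 0.242, 0 and 0.086, with 2 peaks of up to 5.40, 1 of which lay in the exon of RBM11. HTR1F was at 0, 0.218 and 0.345 with a peak of 11.9. EPHA3 was at 0.193, 0.320 and 0.156 with a peak of 7.56. MIS18A, which primes centromeres for new histones, was at 0.514, 0.325 and 0.551 with 2 peaks of up to 4.32. Only HTR1F among these 5 had a firm peak.

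Genes with a firm peak had the higher expression. The 34 genes with a firm peak had a median FPKM of 9.32 ± 0.51, and the 8 genes with weak peaks only had 0.365 ± 0.050 (SD over 3 libraries). Mean FPKM and −log10 FDR of the best peak had a Spearman correlation of 0.69 over 41 genes with a finite value. With the largest fold enrichment it was -0.27 and with the number of peaks 0.16, each over 42 genes. Input reads enter both measures, and genes are not replicates. NRIP1, with 5 peaks, had an FPKM of 4.99, 4.18 and 8.79.

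Among the 5 most expressed covered genes without an assigned peak were 2 with a symbol. APP, the amyloid precursor protein gene, had the highest FPKM on these stretches, at 280, 319 and 257. A minus-strand peak of 180 spliced bases lay within its span (27857907 to 27900203), but it was assigned to ENSBGRG00000000064 of the plus strand, with a fold enrichment of 1.35 and a log10 FDR of -95.4. SOD1, the copper-zinc superoxide dismutase, had 88.7, 106 and 91.2 and no peak. The other three were ENSBGRG00000000144 (186, 170 and 167), ENSBGRG00000000060 (105, 117 and 90.4) and ENSBGRG00000000028 (76.1, 93.2 and 92.6), the last of them a gene of 204 bases. Matched by position in place of the identifier, APP, RBM11 and ZNF654 gained a peak, so that 45 of 114 covered genes had one.

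Peak genes were next compared between stages in the input RNA, in 1 limma fit of log2(FPKM + 0.1) over 8 libraries. The fit left out YO-F2, as the study did, where it deviated from the other libraries. Among the 41 peak genes tested, YO-F2 was the lowest of the 9 libraries in 21 and the highest in 8. Of the 42 peak genes, ENSBGRG00000000034 fell below the filter of a mean FPKM of 0.1. Both stage comparisons share the pregnancy libraries.

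No peak gene passed the test against anestrus. By the standard of the study (a log2 fold change of 1 or more in either direction with an unadjusted p under 0.05), 0 of 41 peak genes were called, beside 3 of all 130 genes tested (2.31%). By Benjamini-Hochberg adjusted p in limma 0 of 130 were called (0%), and at an unadjusted p under 0.05 there were 0 of 41 peak genes beside 4 of 130 (3.08%). Pregnancy and anestrus libraries did not overlap in 3 of 41 peak genes, beside 12 of 130 (9.23%). These were SON, PAXBP1 and DONSON, all with the lower values in pregnancy. The median log2 fold change of the peak genes was -0.07, beside -0.03 over all genes tested, and all 41 lay between -0.60 and 0.60.

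Genes nearest to a difference from anestrus differed by less than 1 on the log2 scale. IFNAR1 had an FPKM of 11.5, 11 and 10.1 in pregnancy against 16.3, 24.6 and 10.6 in anestrus, and the groups overlapped (log2 fold change -0.57, SE 0.30, adjusted p = 0.874 in limma). PAXBP1 was at 26.7, 29.9 and 27.4 against 29.9, 37.5 and 30.6 (-0.22, SE 0.13). DONSON, a DNA replication factor, was at 5.09, 4.95 and 5.72 against 7.50, 5.89 and 6.21 (-0.30, SE 0.18). In the other direction ENSBGRG00000000067 was at 5.75, 7.62 and 5.58 against 3.50, 5.72 and 5.08 (0.41, SE 0.24). GABPA, an ETS-family activator, was at 10.9, 10.8 and 11.8 against 8.16, 9.21 and 11.7 (0.22, SE 0.17). VGLL3 was at 5.80, 3.55 and 5.17 against 6.41, 2.24 and 2.81 (0.45, SE 0.39). The adjusted p of each of these 6 genes was at least 0.874. Single libraries moved these values by over 1.5 times. The log2 fold change of VGLL3 was 0.15 without YO-A2 and 0.89 without YO-A1, and that of IFNAR1 -0.27 without YO-A2 and -0.87 without YO-A3. GABPA had 0.10 without YO-A1 and 0.36 without YO-A3, and ENSBGRG00000000067 had 0.21 without YO-A1 and 0.27 without YO-P2. PAXBP1 had -0.11 without YO-A2 and DONSON -0.20 without YO-A1. No direction turned.

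No peak gene passed the test against estrus either. By the standard of the study 0 of 41 peak genes were called, beside 3 of 130 (2.31%), and by adjusted p 0 of 130 (0%). At an unadjusted p under 0.05 there were 2 of 41, MRPS6 and DONSON, beside 12 of 130 (9.23%). Pregnancy did not overlap the 2 estrus libraries YO-F1 and YO-F3 in 13 of 41 peak genes (31.7%), beside 35 of 130 (26.9%), a share near the background. In 3 of them (VGLL3, GABPA and SYNJ1) pregnancy was higher and in 10 lower. Regardless of overlap, the log2 fold change was above 0 in 16 of 41 peak genes (39%), beside 55 of 130 (42.3%). The median log2 fold change of the peak genes was -0.06, beside -0.07 over all genes tested.

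MRPS6 had 59.7, 64.7 and 53.3 in pregnancy against 92.9 and 77.0 in YO-F1 and YO-F3, all pregnancy values being lower (log2 fold change -0.52, SE 0.13, adjusted p = 0.123 in limma). DONSON had 5.09, 4.95 and 5.72 against 6.70 and 7.87 (-0.46, SE 0.20, adjusted p = 0.535 in limma). CGGBP1, a repeat-binding nuclear protein, had 25.4, 22.4 and 23.6 against 28.6 and 27.6 (-0.24, SE 0.12), a direction that turned to 0.24 with YO-F2 in the fit, where it was at 10.3. VGLL3 had 5.80, 3.55 and 5.17 against 2.18 and 2.81, with pregnancy above estrus throughout (0.91, SE 0.44, adjusted p = 0.535 in limma). With YO-F2, at 0.135, it passed the standard of the study (log2 fold change 2.06, adjusted p = 0.442 in limma). SYNJ1, a phosphoinositide phosphatase, had 6.63, 7.32 and 6.93 against 4.98 and 5.50 (0.40, SE 0.24), and GABPA 10.9, 10.8 and 11.8 against 9.96 and 8.96 (0.24, SE 0.19).

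**Figure D5:**
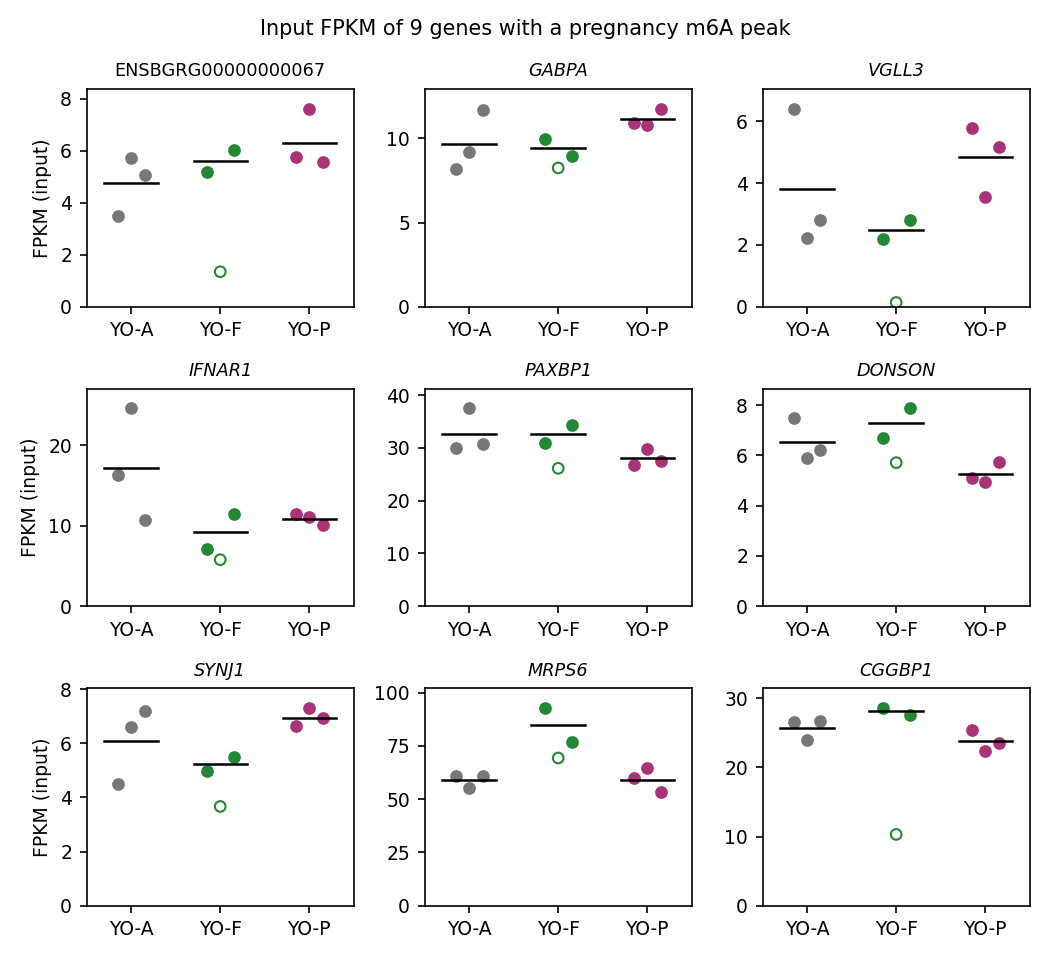
Input FPKM of the 9 peak genes nearest to a difference between stages, with 1 point per library, lines at the stage means, and YO-F2 as an open point outside the mean and the fit. MRPS6 lies at 53.3 to 64.7 in pregnancy and at 77.0 and 92.9 in the 2 filled estrus points, and VGLL3 in YO-F2 lies at 0.135.

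Finally, pregnancy peaks were set beside those of the other stages, within the stretch of the plus strand that both lists cover. Peaks sharing at least 1 spliced base on the same strand were counted as shared. Up to position 22449705, 4 of 6 pregnancy peaks (66.7%) overlapped an anestrus peak, and 5 of 9 anestrus peaks (55.6%) overlapped a pregnancy peak. Up to 36965772, 8 of 12 pregnancy peaks (66.7%) overlapped an estrus peak, and 8 of 18 estrus peaks (44.4%) a pregnancy peak. With 95% exact binomial intervals of 22.3 to 95.7 and 34.9 to 90.1 for the pregnancy shares, the stages could not be ranked. Among the 4 pregnancy peaks without an estrus partner, 1 was firm, the 3′ UTR peak of VGLL3, which did overlap an anestrus peak. The pooled estrus list does not name its libraries and may include YO-F2. In the input RNA VGLL3 had an FPKM of 2.18, 0.135 and 2.81 in YO-F1, YO-F2 and YO-F3, against 5.80, 3.55 and 5.17 in pregnancy.

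For shared sites the values are given side by side. USP25 had 2.24 in pregnancy, 2.06 in anestrus and 1.77 in estrus. The 5′ UTR peak of VGLL3 had 17.8 in pregnancy, 13.8 in estrus, and 8.91 and 20.8 in its 2 anestrus partners. BACH1 had 8.47 and 6.30 in estrus, USP16 5.25 and 3.89, and EVA1C, a transmembrane protein gene, 7.17 and 10.4. The 3′ UTR peak of VGLL3 had 4.15 and 6.13 in anestrus, and ENSBGRG00000000034 had 7.56 and 8.42 in anestrus. ENSBGRG00000000131 had 8.83 in pregnancy against 12 in estrus, and a second peak of 2.70 that overlapped this estrus peak and another of 3.95. Pregnancy values were thus higher at some sites and lower at others. GABPA stood apart, with 3.57 in pregnancy and 108 in a longer estrus peak of 778 spliced bases, which contains all 389 bases of the pregnancy peak. Each list pools its libraries, so none of these differences could be tested.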

How the data were processed

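Per the labels and the methods of the study, poly(A) RNA was fragmented and split into input and m6A-immunoprecipitated libraries. The authors filtered reads with fastp, aligned them with HISAT2 (2.0.4, per the submitters' processing notes, which also name ChIPseeker 1.18.0) and quantified genes with StringTie. They deposited 1 FPKM value per gene and input library. The authors deposited 1 peak list per stage, in which fold enrichment is a ratio and the p-value and FDR are given on a log10 scale, used here as a score. The methods name a Bos grunniens genome by a version number only. The peak caller and an assembly name are not given in the sources used here. Deposited tables in which the authors compared peaks between stages (log2 fold change, p-value and FDR) were not used. Of each deposited file an opening stretch was analysed, and lines cut short were dropped.

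Peaks were summarised per gene, region, exon and spliced length, and called firm at a log10 FDR of -2 or below. Genes without a peak were taken from the stretches and strands that the list covers. The stage fit used limma 3.58.1 (R 4.3.3) with a mean-variance trend on 8 libraries and a pseudocount of 0.1. Benjamini-Hochberg adjustment ran over the 130 genes whose mean FPKM reached 0.1. The fit was first tested on simulated data with a log2 change of 3 and a common noise level for all genes. That test does not show whether smaller changes would be found. FPKM is not a count, so no count test was used. The p-values measure only the spread between these samples, which may be technical. Overlap used bedtools 2.31.1, and other values Python 3.11.15 with pandas 2.3.3 and scipy 1.17.1. RefSeq held 138 of 147 peak gene symbols. No coordinates were taken from it.

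Named were the 10 peaks with the largest fold enrichment, the 5 with the lowest FDR, the 5 genes with most peaks, the 5 highest and 5 lowest expressed genes with a peak, the 5 highest without, genes of 6 function lists, and up to 3 genes per direction and stage comparison. Any further gene was picked with its values in view. The members and lists were chosen with earlier results of these data known. Alternatives were stricter peaks, merged peaks, 1 peak per gene, other gene sets and matches, other pseudocounts and filters, quantile normalization, YO-F2 included, the replicate number as block, and each library left out.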

Additional observations from a re-analysis of the deposited data

How the results depend on the processing

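The shares of regions and of genes with several peaks moved by less than their binomial interval under all alternatives run. The median fold enrichment was 4.15 with firm peaks only, 5.12 with the strongest peak of each gene, and 3.88 at a log10 FDR of -5 or below, the last added after the data were seen. The log2 difference in median FPKM between genes with and without a peak (4.13) turned to -0.25 at a mean FPKM of at least 1 and to -0.31 at 0.1, since these filters remove genes without a peak. It was 2.14 against all genes of the table, 4.49 with firm peaks, 4.79 with peaks matched by position, and, chosen after seeing the data, 4.48 by annotated exon and 1.58 over genes with a symbol. Leaving out a pregnancy library gave 4.02 to 4.30. The share of pregnancy peaks overlapping anestrus was 16.7% with 50% of both peaks and 100% with firm peaks in both lists, and for estrus 41.7% and 88.9%.

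The count of peak genes called against estrus rose from 0 to 1 (VGLL3) with YO-F2 included, where the log2 fold change of CGGBP1 reversed to 0.24. Leaving out 1 library gave 0 to 1 peak genes called against anestrus (RCAN1 without YO-A1) and 0 to 2 against estrus (ADAMTS1 and MIS18A without YO-F3). Without YO-F3, estrus is the single library YO-F1, assumed to vary like the other groups. The replicate numbers were not tied to a shared animal or batch, and deviations of same-numbered libraries had correlations of -0.17 to 0.39. With the replicate number as a block, 0 peak genes were called against anestrus and 1 (VGLL3) against estrus, and calls over all 130 genes went from 3 to 4 in each. All other alternatives for the stage comparisons left 0 peak genes called by the standard of the study. Over all genes tested, its calls were 1 to 4 against anestrus, and 1 to 9 against estrus (9 without YO-F3). Adjusted calls were 0, or 1 of all genes against estrus without YO-A3, YO-F3 or YO-P1. The one pooled list per stage, the single chromosome and the few shared peaks limit every statement on peaks.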

Other observations

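Fold enrichment took few values among weak peaks. The 64 peaks with a log10 FDR above -2 had 18 distinct values, and the 169 at -5 or below had 150. Many values were whole multiples, within rounding, of a common step, of which 7.56 is 7 times and 4.32 is 4 times. Such multiples were listed for 49 of the 64 weak peaks and for 21 of the 49 peaks between -2 and -5. At -5 or below they were listed for 11 of the 169. Every fold enrichment above 20 was such a multiple. The source of the step was not tested. A value of 7.56 was listed for 16 peaks, 13 of them weak, 4.32 for 13 peaks, 10 of them weak, and 8.64 for 8 peaks, all weak. Only weak peaks were listed for 34 of the 176 genes. An FPKM value was analysed for 8 of these, and 6 of the 8 had a mean FPKM under 1.

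Gene ontology terms of transcription regulation or DNA-binding transcription factor activity were attached to 22 of 153 annotated peak genes. On the covered stretches they were attached to 7 of 37 annotated genes with a peak and 2 of 42 without, and terms of the nucleus to 13 and 6. Terms of the plasma membrane were attached to 6 and 9. The counts were not tested, since genes are not replicates and genes with a peak were longer. They were not adjusted for expression either. Of all covered genes without a peak, 34 (47.2%) had a mean FPKM under 0.1, against 1 of those with a peak.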
